A study of Homo sapiens with 2 samples.

Results

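The matrix metalloproteinases (MMP), the ADAM and ADAMTS proteases and their tissue inhibitors (TIMP) were followed in CP-A, a non-dysplastic cell line from Barrett's esophagus immortalized with human telomerase reverse transcriptase. The members are all genes whose symbol in the platform annotation is MMP, ADAM or ADAMTS followed by a number, or TIMP1 to TIMP4. They numbered 62 of the 17687 genes measured, with 22 MMP, 19 ADAM, 18 ADAMTS and 3 TIMP genes, and each was read by 1 row of the array. RefSeq lists 65 protein-coding genes with such names, and ADAM7, ADAMTS7 and TIMP2, which the annotation used does not name, were not analysed here.

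The series holds 1 Clariom S human array of control cells and 1 of cells exposed to acid and deoxycholic acid (DCA), a secondary bile acid, labelled pH 6.4 + DCA. According to the methods, CP-A was exposed 3 times, for 48 h each, to medium acidified with hydrochloric acid and holding 100 µM DCA, with cells cultured in basal medium between exposures. Both cultures were grown in serum-containing MCDB-153 medium with epidermal growth factor, hydrocortisone and cholera toxin, and CP-A is 1 cell line. Whether the cells of the arrays had received nocodazole, which the methods give for the RNA of the RT-qPCR assays, is not given in the sources used here. Values are log2 expression levels as deposited, a difference is pH 6.4 + DCA minus control, and a gene is called higher or lower only at 2-fold or more, the threshold of the methods. With 1 array per condition no difference has a replicate check, no p-value or error can be given, and precision is limited by this number of arrays. The arrays are named by their labels.

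MMPs are zinc-dependent enzymes that are made as inactive proenzymes and, once the propeptide is removed, cut collagens, proteoglycans and other proteins around the cell. ADAM proteases sit in the membrane and shed the outer parts of growth factors, cytokines and receptors, although several ADAM proteins lack a working catalytic site and act in adhesion or in sperm. ADAMTS proteases are secreted and act on proteoglycans, procollagens and von Willebrand factor, and TIMPs bind the active sites of many of these enzymes. In Barrett's esophagus and esophageal adenocarcinoma these genes are studied for their part in matrix breakdown and in the release of epidermal growth factor receptor ligands.

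Of the members, 9 lie side by side on chromosome 11 among the measured genes, and this cluster holds 2 of the 3 genes that were lower. On the whole chromosome 57 of 1192 measured genes were lower, and of all genes 4.12%. RefSeq promoter windows (GRCh38.p14), which run from 250 bases before the start of a gene to 50 bases after it, were found for 37 of the 62 members. The 250 bases before the start are shown for MMP10, which was lower, and for its cluster neighbours MMP7 and MMP8, which were not. Both MMP7 and MMP8 lay under the lower quartile on both arrays, so the lack of a call says little about them. Capitals mark the AP-1 element TGANTCA, which reads the same on both strands, and the TATA box TATAAA, searched on the gene's strand. The MMP10 stretch is chr11:102780629-102780878 on the minus strand, that of MMP7 chr11:102530748-102530997 on the minus strand and that of MMP8 chr11:102724955-102725204 on the minus strand.
MMP10: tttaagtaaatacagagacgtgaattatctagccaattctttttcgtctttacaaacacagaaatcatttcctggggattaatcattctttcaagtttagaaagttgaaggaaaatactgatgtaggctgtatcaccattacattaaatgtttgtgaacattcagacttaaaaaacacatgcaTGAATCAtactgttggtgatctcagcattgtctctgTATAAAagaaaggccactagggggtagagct
MMP7: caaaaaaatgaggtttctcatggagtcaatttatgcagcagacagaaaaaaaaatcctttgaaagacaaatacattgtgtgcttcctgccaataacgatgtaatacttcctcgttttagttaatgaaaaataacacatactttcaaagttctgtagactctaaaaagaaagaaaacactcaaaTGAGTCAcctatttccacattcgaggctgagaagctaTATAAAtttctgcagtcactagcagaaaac
MMP8: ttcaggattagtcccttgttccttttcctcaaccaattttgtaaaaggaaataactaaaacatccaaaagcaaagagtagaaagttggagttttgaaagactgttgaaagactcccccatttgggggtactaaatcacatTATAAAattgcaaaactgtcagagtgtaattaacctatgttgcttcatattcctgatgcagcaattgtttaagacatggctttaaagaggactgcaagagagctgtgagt

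The MMP10 and MMP7 windows had the same layout, with the AP-1 letters beginning 67 bases before the start in each and the TATA letters beginning 31 bases before it in MMP10 and 30 in MMP7. The MMP8 window had TATA letters 110 bases before the start and no AP-1 letters. Over the 37 member windows, the AP-1 letters were found in 4, or 10.8%, those of MMP7, MMP10, MMP20 and ADAMTS12. Over 27305 RefSeq windows, 1 per gene symbol, they were found in 7.76%. This set, called all windows below, is wider than the genes measured on the arrays. The TATA letters were found in 7 member windows, or 18.9%, beside 7.71% of all windows, and 5 of these 7 were windows of chromosome 11, those of MMP7, MMP8, MMP10, MMP20 and MMP26. Members with the AP-1 letters differed between the arrays by -1.13 (MMP10), -0.16 (ADAMTS12), 0.01 (MMP7) and 0.23 (MMP20) on the log2 scale. MMP7 and MMP20 lay under the lower quartile on both arrays, where a difference rests on little. A link between the letters and the differences was not tested. The windows of MMP1 and MMP3 were not analysed here.

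ADAM19, the other lower gene and one that the study followed at its promoter, has a window of a different kind. Its 250 bases before the start, chr5:157575776-157576025 on the minus strand, are shown with each CpG, the pair of letters at which DNA is methylated, in capitals.
ADAM19: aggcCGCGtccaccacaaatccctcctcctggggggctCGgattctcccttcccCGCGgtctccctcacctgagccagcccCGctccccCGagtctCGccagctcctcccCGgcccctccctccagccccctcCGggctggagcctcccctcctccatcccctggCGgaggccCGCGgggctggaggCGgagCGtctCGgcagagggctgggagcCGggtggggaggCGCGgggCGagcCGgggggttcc

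This stretch held 21 CpG, against 2 in that of MMP10, 3 in that of MMP7 and none in that of MMP8. Over the full window of 300 bases ADAM19 had 26 CpG, equal to the median of 26 over the member windows and above the median of 14 over all windows. It held neither the AP-1 nor the TATA letters. Promoter methylation was not analysed here.

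Few of the proteases and inhibitors differed by 2-fold. The interstitial collagenase MMP1, the stromelysin MMP10 and the membrane-anchored ADAM19 were lower on the pH 6.4 + DCA array, and the proteoglycan-cleaving ADAMTS9 was higher. The 3 lower genes made up 4.84% of the members, where 4.12% of all 17687 genes were lower, and the 1 higher gene made up 1.61%, where 2.52% of all genes were higher, so both shares were near the background. The median difference was 0.02 over the members and 0.00 over all genes, with 28 members below 0 and 34 above it. At 1.5-fold, 7 members or 11.3% were lower and 5 or 8.06% were higher, beside 11.8% and 10.6% of all genes. The 35 members that are neither among the called genes, the TIMP genes nor the extremes or brightest of their family differed by -0.46 to 0.49, and the description below turns on single genes.

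**Figure D1:**
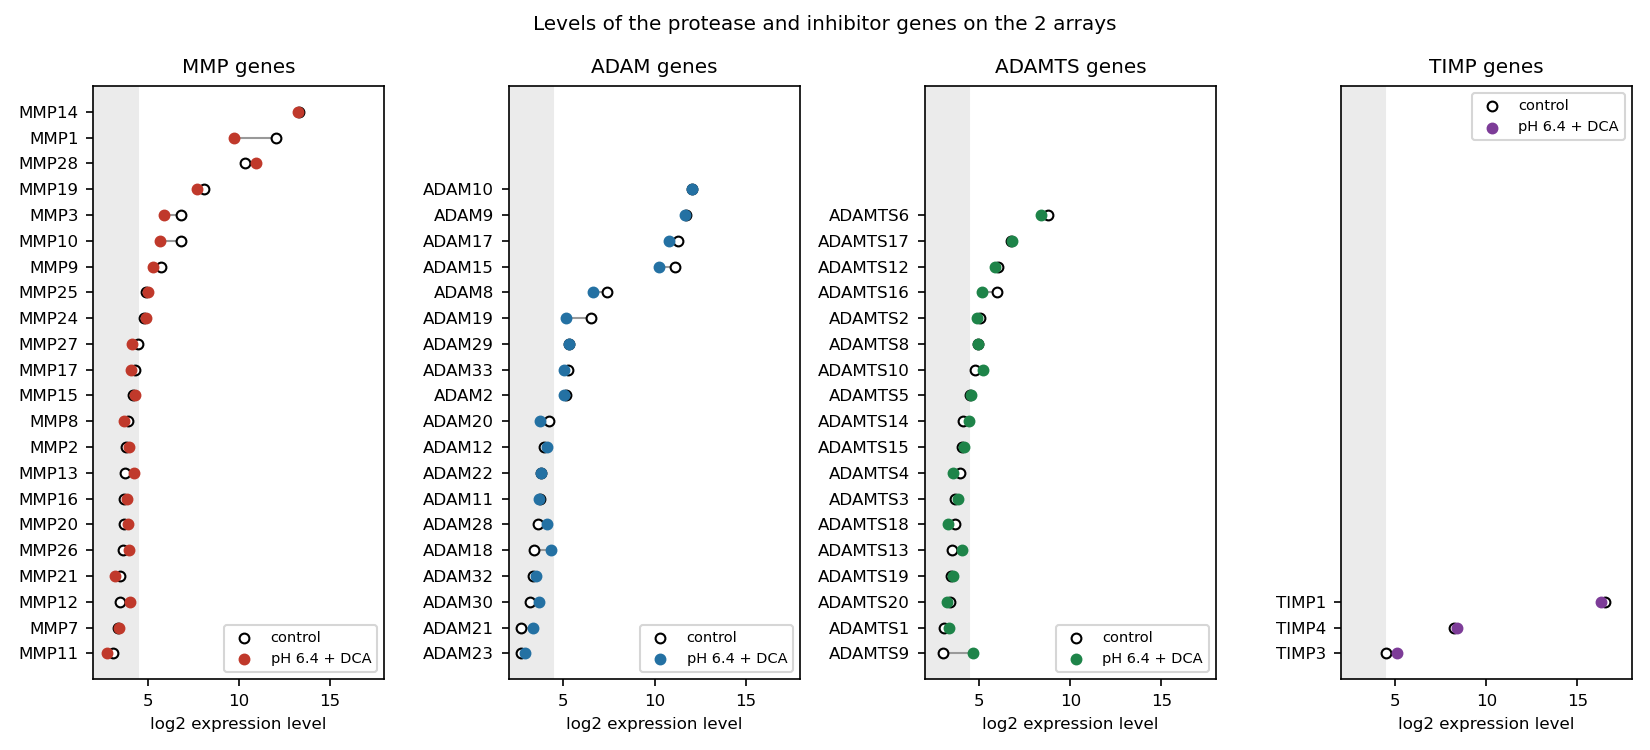
Log2 expression level of each of the 62 members (horizontal axis) on the control array (open circles) and on the pH 6.4 + DCA array (filled circles), 1 array each, by family, with a grey line joining the values of a gene and grey shading up to the higher of the lower quartiles of the arrays, 4.45. The longest lines are those of MMP1, ADAMTS9, ADAM19 and MMP10, and 31 members lie under the lower quartile on both arrays.

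The signal of many members was weak. The lower quartile over transcript clusters was 4.43 on the control array and 4.45 on the other, the medians were 6.55 and 6.50, and the upper quartiles 9.42 and 9.41. A level under the lower quartile was taken as a weak signal, at which a difference rests on little, and 31 of the 62 members lay there on both arrays, namely 12 MMP, 10 ADAM and 9 ADAMTS genes. Above the upper quartile on both arrays lay 8 members, MMP1, MMP14, MMP28, ADAM9, ADAM10, ADAM15, ADAM17 and TIMP1. Brightness also depends on the probes, so levels of different genes are not ranked as amounts of RNA.

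Among the MMPs, the collagenase MMP1 and the stromelysin MMP10 were lower. MMP1, which cuts fibrillar collagens, had a log2 level of 12.04 on the control array and 9.74 on the pH 6.4 + DCA array. This difference of -2.30, or 4.93-fold lower, was the widest of all members (transcript cluster TC1100012131.hg.1), and both levels lay above the upper quartile. MMP10 (TC1100012130.hg.1), or stromelysin-2, which cuts proteoglycans and non-fibrillar matrix proteins, went from 6.81 to 5.69, which is 2.18-fold lower. MMP3, or stromelysin-1, an enzyme that also activates other MMP proenzymes, went from 6.86 to 5.91, a difference of -0.95, just short of 2-fold. The third stromelysin, MMP11, differed by -0.34 at levels of 3.11 and 2.77, a weak signal on both arrays. Of the 3 stromelysins, 1 was lower by the threshold.

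The other collagenases did not go the way of MMP1. MMP8, the collagenase of neutrophils, went from 3.94 to 3.69, and MMP13, or collagenase-3, from 3.74 to 4.24. All 4 of these levels were weak signals. The gelatinases, which cut denatured and basement membrane collagens, were MMP2 at 3.83 and 3.98 and MMP9 at 5.75 and 5.30, a difference of -0.45 for MMP9. The matrilysins MMP7 and MMP26, small enzymes of epithelia, differed by 0.01 and 0.32 at levels under the lower quartile on both arrays.

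The brightest MMP signal, that of MMP14, was nearly equal on both arrays. MMP14 is a collagenase of the cell surface that also activates the MMP2 proenzyme, and it had levels of 13.32 and 13.26, a difference of -0.06. The 6 membrane-type genes, which besides MMP14 include MMP15, MMP16, MMP17, MMP24 and MMP25, differed by -0.21 to 0.19, with a median of 0.12, and none was called. The largest positive difference among the MMPs was that of MMP28, or epilysin, an enzyme of keratinocytes and other epithelial cells, which went from 10.34 to 10.95, a difference of 0.61 or 1.53-fold. MMP12, the macrophage elastase, followed at 0.57, but from 3.46 to 4.03, both weak signals. MMP19, an enzyme found in many tissues, went from 8.12 to 7.70, a difference of -0.43, and MMP21 differed by -0.29 at a weak signal. In the whole family 2 of 22 genes or 9.09% were lower and no gene was higher, beside 4.12% and 2.52% of all genes. There were 11 genes below 0 and 11 above.

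The lower MMPs were next to each other in the genome. In gene order the cluster of chromosome 11 runs MMP7, MMP20, MMP27, MMP8, MMP10, MMP1, MMP3, MMP12 and MMP13. MMP10, MMP1 and MMP3 stand together in its middle, with differences of -1.13, -2.30 and -0.95. On one side MMP8 and MMP27 differed by -0.25 and -0.30, and MMP20 and MMP7 by 0.23 and 0.01. On the other side MMP12 and MMP13 differed by 0.57 and 0.51. The 3 middle genes also were the only ones of the cluster above the lower quartile on both arrays, while the other 6 lay under it on at least 1 array. Differences of those 6 rest on a weak signal. The measured genes that flank the cluster, TMEM123 and DCUN1D5, differed by 0.20 and -0.03, and the 1192 measured genes of chromosome 11 had a median of -0.04.

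**Figure D2:**
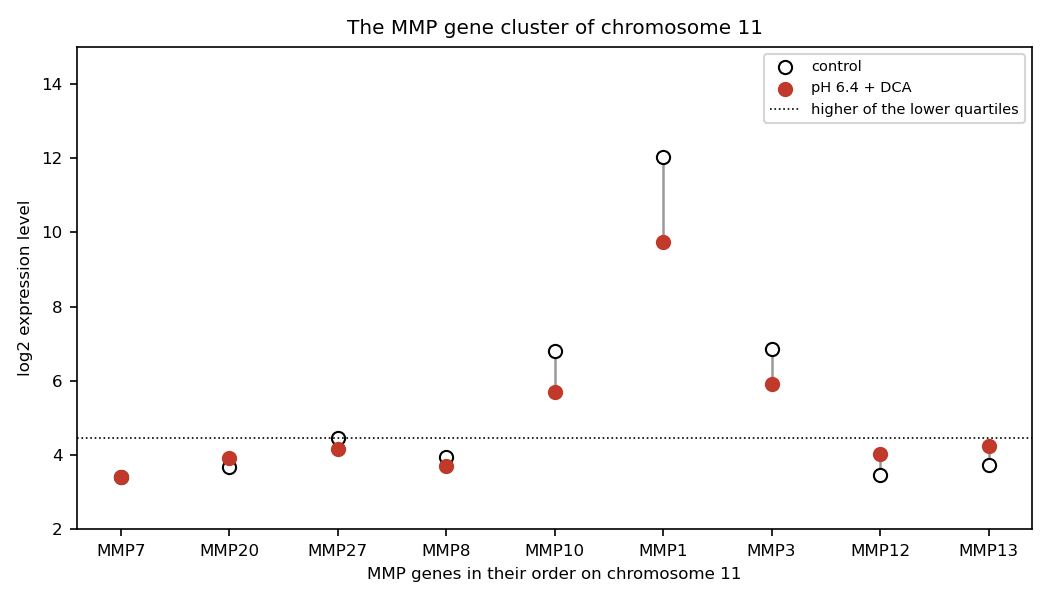
Log2 expression level (vertical axis) of the 9 MMP genes of the chromosome 11 cluster in gene order on the control array (open circles) and the pH 6.4 + DCA array (filled circles), 1 array each, with the higher of the lower quartiles of the arrays, 4.45, as a dotted line. MMP10, MMP1 and MMP3 lie above the line on both arrays with differences of -1.13, -2.30 and -0.95, while MMP7, MMP20, MMP8, MMP12 and MMP13 lie under the line.

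ADAM19 was the 1 ADAM gene that passed 2-fold. In the whole family 1 of 19 genes or 5.26% was lower and 0 were higher, beside 4.12% and 2.52% of all genes. The family median was 0.00. ADAM19 (TC0500012599.hg.1), a protease that sheds neuregulins, went from 6.51 to 5.11, a difference of -1.39 or 2.63-fold lower. Its control level was just under the median of that array. When 32 was added to the linear values before log2, which damps dim signals, its difference was -0.88 and that of MMP10 -0.79, both under 2-fold, while MMP1 stayed past it.

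ADAM10, ADAM17, ADAM9 and ADAM15 had bright signals and smaller differences than ADAM19, and so did ADAM8 at a moderate signal. ADAM10, which cuts Notch receptors, cadherins and some epidermal growth factor receptor ligands, had levels of 12.04 and 12.04, a difference of 0.00. ADAM17, which releases tumor necrosis factor, amphiregulin and transforming growth factor alpha, went from 11.27 to 10.77, a difference of -0.49. ADAM9, another membrane protease of broad expression, had 11.73 and 11.70. ADAM15, which also acts in adhesion through its integrin-binding disintegrin domain, went from 11.14 to 10.24, a difference of -0.90 or 1.86-fold. ADAM8, known from leukocytes and from tumors, went from 7.39 to 6.63, a difference of -0.76 or 1.69-fold. None of these 5 passed 2-fold, and ADAM15 and ADAM8 were the nearest to it.

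The remaining ADAM genes were at weak or moderate signals. ADAM11, ADAM12, ADAM22, ADAM23, ADAM29 and ADAM32 differed by -0.05, 0.19, 0.01, 0.23, 0.03 and 0.18, and ADAM33 and ADAM30 by -0.24 and 0.49. The 3 largest positive differences of the family were those of ADAM18, from 3.38 to 4.31 or 1.91-fold, ADAM21, from 2.68 to 3.33 or 1.57-fold, and ADAM28, from 3.60 to 4.10 or 1.41-fold. ADAM18 and ADAM21 are genes of the testis and ADAM28 is known from lymphocytes, and all of their levels were weak. ADAM18 lies in a row with ADAM9, ADAM32 and ADAM2 on chromosome 8, whose differences were -0.03, 0.18 and -0.13. ADAM20, next to ADAM21 on chromosome 14, differed by -0.46. Of the 10 ADAM genes under the lower quartile on both arrays, 8 were above 0 and 2 below. This lean was not particular to the family. Of all 31 members there, 22 were above 0 and 9 below, with 8 of 12 MMP and 6 of 9 ADAMTS genes above.

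In the ADAMTS family the called gene was a higher one. ADAMTS9 (TC0300011391.hg.1), which cleaves the proteoglycans versican and aggrecan, went from 3.03 to 4.66, a difference of 1.62 or 3.08-fold higher. The control level was a weak signal and the other lay only just above the lower quartile. With 32 added on the linear scale, the difference was 0.51. The other proteoglycan-cleaving genes, ADAMTS1, ADAMTS4, ADAMTS5, ADAMTS8, ADAMTS15 and ADAMTS20, ran from -0.38 (ADAMTS4, from 3.94 to 3.55) to 0.28 (ADAMTS1, from 3.04 to 3.32). ADAMTS5 lies next to ADAMTS1 on chromosome 21 and differed by 0.10.

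The brightest ADAMTS signals differed less. ADAMTS6, an enzyme linked to heart development in mice, went from 8.77 to 8.37, a difference of -0.41, ADAMTS17, a gene mutated in a Weill-Marchesani-like syndrome, had 6.74 and 6.77, and ADAMTS12, which cleaves cartilage oligomeric matrix protein, had 6.04 and 5.87. The most negative difference of the family was that of ADAMTS16, from 5.98 to 5.14, which is -0.84 or 1.79-fold. ADAMTS13, the protease of von Willebrand factor, went from 3.52 to 4.04, a difference of 0.53 at a weak signal on both arrays. ADAMTS10, which acts on fibrillin microfibrils, went from 4.78 to 5.20, a difference of 0.42. ADAMTS18 and ADAMTS19 differed by -0.36 and 0.10 at weak signals. The procollagen N-propeptidases ADAMTS2, ADAMTS3 and ADAMTS14, which trim fibrillar procollagens, differed by -0.19, 0.18 and 0.36. The signals of ADAMTS3 and ADAMTS14 were weak on both arrays. No gene of the family was lower and 1 of 18 or 5.56% was higher, beside 4.12% and 2.52% of all genes. The median was 0.06, and -0.07 over the 8 genes left without those under the 25th percentile of mean level.

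The 3 measured inhibitors stayed within 2-fold. TIMP1, a secreted inhibitor of most MMPs, had levels of 16.54 and 16.30, a difference of -0.23. TIMP3, the inhibitor that binds to the matrix and also acts on ADAM17 and on ADAMTS enzymes, went from 4.47 to 5.12, a difference of 0.65 or 1.57-fold, at levels not far above the lower quartile. TIMP4 had 8.25 and 8.38, a difference of 0.13. The difference of MMP1, a target of TIMP1, was -2.30 beside the -0.23 of TIMP1.

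Members with a brighter signal were more often below control than above it. Of the 12 members whose mean level reached the median over all genes, 9 or 75% had a difference below 0, with a median of -0.32, beside 51.4% and a median of -0.02 over the 8844 genes of that range. The 9 were MMP1, MMP14, MMP19, ADAM8, ADAM9, ADAM15, ADAM17, ADAMTS6 and TIMP1, and the 3 above 0 were MMP28, ADAM10 and TIMP4. MMP14 and ADAM9 were close to 0 and changed sign under some scalings, so that 8 of the 12 or 66.7% were below 0 with median centring or quantile normalization, beside 46.7% and 47.7% of the genes. With a lowess trend removed the count was 7 or 58.3%, beside 51.1%. Among the 50 dimmer members, 19 or 38% were below 0 and the median was 0.09, beside 48.6% and 0.01 over the dimmer genes. This division was made after the values were seen. Of the 12 brighter members 1 or 8.33% was lower and 0 were higher, beside 5.86% and 3.26% of the 8844 genes.

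**Figure D3:**
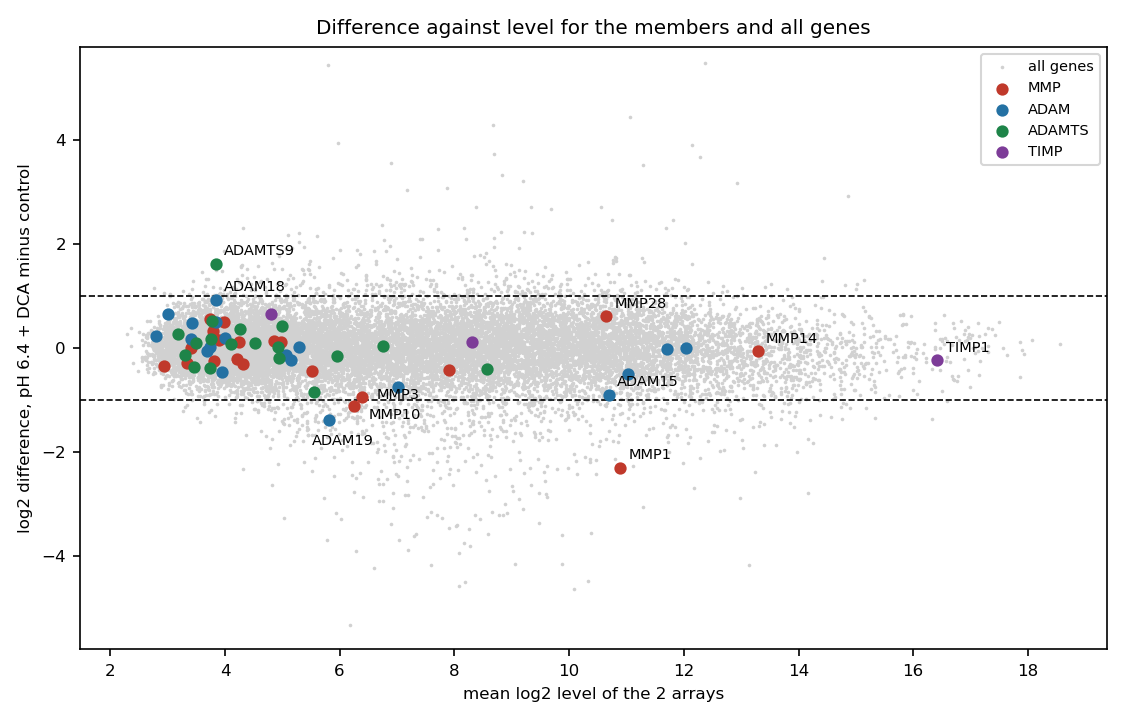
Log2 difference, pH 6.4 + DCA minus control (vertical axis), against the mean log2 level of the 2 arrays (horizontal axis) for 17687 genes in grey and the 62 members in colour by family, with dashed lines at 2-fold. MMP1, MMP10 and ADAM19 lie under the lower line and ADAMTS9 above the upper one, at a mean level far to the left.

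Several members lie on chromosome 5, which carries ADAM19. They are ADAMTS16, ADAMTS12, ADAMTS6, ADAMTS19, ADAM19 and ADAMTS2 in gene order. Of these 6, 5 had a difference below 0, beside 50% of all genes. In that order the differences were -0.84, -0.16, -0.41, 0.10, -1.39 and -0.19, with a median of -0.30. The 757 measured genes of the chromosome had a median of 0.19, with 50 higher and 22 lower. Over all genes the median was 0.00, with 2.52% higher and 4.12% lower. The 6 genes lie apart from each other, and neither neighbour of any of them among the measured genes was lower. The most negative was CENPK, next to ADAMTS6, at -0.90. The neighbours of ADAMTS16, IRX1 and ICE1, differed by -0.09 and 0.49, and those of ADAMTS2, ZNF354C and RUFY1, by 0.88 and 0.95. Copy number was not analysed here.

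Among genes that activate MMP proenzymes or hold proteolysis in check, SERPINE2, PLAU and SPOCK1 were lower. Of 16 measured genes of this list, which covers plasminogen activation, proprotein convertases and MMP inhibitors outside the TIMP family, 3 or 18.8% were lower, beside 4.12% of all genes, none was higher and the median was -0.03. SERPINE2, or protease nexin-1, which inhibits thrombin and urokinase, went from 12.83 to 9.76, a difference of -3.06 or 8.35-fold lower. PLAU, the urokinase that turns plasminogen into plasmin, went from 12.98 to 11.16, 3.54-fold lower, and SPOCK1, or testican-1, a proteoglycan reported to act on MMP activation, from 8.91 to 7.18, 3.32-fold lower. The urokinase and its inhibitor SERPINE2 were both lower. The urokinase receptor PLAUR differed by -0.21, the tissue-type activator PLAT by 0.60, the convertase FURIN, which activates MMP14 and ADAM proenzymes, by -0.03, the membrane-anchored MMP inhibitor RECK by 0.47 and BSG, an inducer of MMPs, by -0.18. PCSK6 was not analysed here.

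Among partners of ADAM10 and ADAM17, 2 tetraspanins were lower, and no iRhom was. The list holds the iRhoms RHBDF1 and RHBDF2 and the factor FRMD8, which carry ADAM17 to the surface and keep it there, and 6 tetraspanins that do so for ADAM10. TSPAN15, which directs ADAM10 to cadherins, went from 6.24 to 4.67, 2.96-fold lower, and TSPAN14 from 10.36 to 8.96, 2.64-fold lower. ADAM10 itself differed by 0.00. TSPAN5 differed by -0.55, TSPAN17 by 0.11, RHBDF1 by 0.13 and RHBDF2 by 0.39. In all, 2 of 9 or 22.2% passed 2-fold downward, beside 4.12% of all genes, and 0 upward, and the median was -0.11. With 32 added on the linear scale the difference of TSPAN15 was -0.90, under 2-fold.

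Related enzymes of the metzincin clan and ADAMTS-like proteins differed little. Of 15 measured, 1 or 6.67% was higher, beside 2.52% of all genes, none was lower and the median was -0.12. The higher one was PAPPA, pappalysin-1, which cleaves insulin-like growth factor binding proteins, from 6.10 to 7.13 or 2.05-fold. It was under 2-fold, at a difference of 0.78, with 32 added before log2. BMP1, the procollagen C-proteinase, went from 10.73 to 10.17, a difference of -0.57, and its relative TLL2 differed by -0.76. MMP23B was not analysed here.

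**Figure D4:**
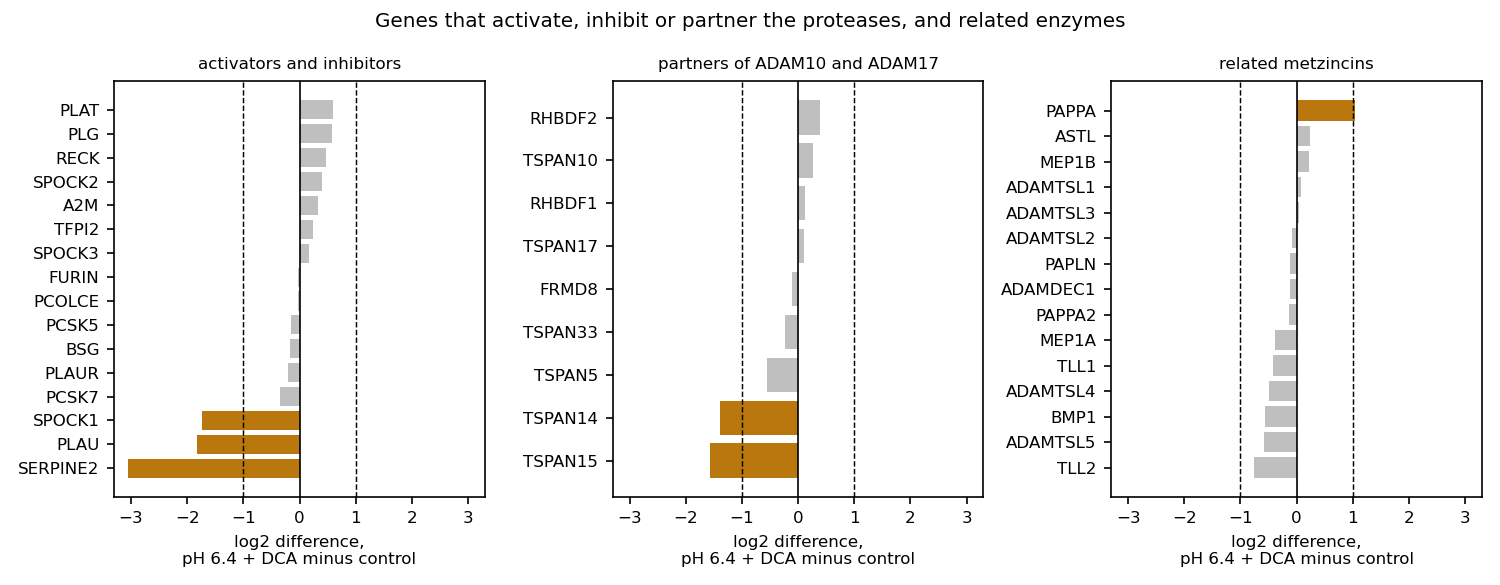
Log2 difference, pH 6.4 + DCA minus control (horizontal axis), of the measured genes of 3 lists, 16 activators and inhibitors, 9 partners of ADAM10 and ADAM17 and 15 related metzincins, with bars past 2-fold in brown and dashed lines at 2-fold. SERPINE2, PLAU, SPOCK1, TSPAN15 and TSPAN14 lie past the lower line and PAPPA just past the upper one.

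The cells carried the markers of an epithelium on both arrays. The keratins KRT5, KRT7, KRT8, KRT14, KRT18 and KRT19, EPCAM and CDH1 all lay above the upper quartile on both, while the intestinal markers were dimmer, CDX2 near the median and MUC2 near or under the lower quartile. All 10 measured epithelial markers were below control, beside 50% of all genes. Of these 10, 3 or 30% were lower, beside 4.12% of all genes. They were KRT14 by 7.38-fold, EPCAM by 2.96-fold and KRT18 by 2.77-fold. The 7 fibroblast markers had levels of 4.10 to 10.51 on the control array and 4.08 to 8.74 on the other. FAP and THY1, or 28.6%, were lower and LUM, or 14.3%, was higher, beside 4.12% and 2.52% of all genes. Of 7 leukocyte and macrophage markers, at 4.36 to 10.16 and 4.12 to 10.37, and 4 endothelial markers, at 2.60 to 7.06 and 3.11 to 6.95, none passed 2-fold, and PTPRC lay at 5.03 and 5.07. The epithelial markers moved in the direction of MMP1, MMP10 and ADAM19, and their part in these results was not tested. That direction was not particular to them. Below 0 also were 6 of 7 fibroblast, 3 of 4 endothelial and 4 of 7 leukocyte and macrophage markers. In a bulk sample, fewer cells of a type and less RNA per cell cannot be told apart.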

How the data were processed

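Gene expression of CP-A cells was measured on 1 Clariom S human array per condition. Transcriptome Analysis Console (version 4.0 per the submitters' processing notes) was used by the authors, who deposited log2 expression values for 21448 rows. How background, summarization and normalization were handled, and on which genome build, is not given in the sources used here.

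All 20893 transcript clusters were used as deposited. Of all rows, 17709 carry 1 symbol in the platform annotation and 3739 carry none; per gene the row with the highest mean was kept. Gene order and promoters came from RefSeq (GRCh38.p14). No test across samples is possible with 1 array per condition. Members and lists were chosen with earlier results of these data known. Members named with both levels include each one that differed by 2-fold, all TIMP genes, ADAM19, and the 3 largest differences in each direction and 3 brightest genes of the other families; further members were named for their role or position after their values were seen. Genes of the other lists that passed 2-fold are named, with some others for their role. The planned division of ADAM genes by a catalytic motif was not run. Python 3.11.15, numpy 2.4.6, pandas 2.3.3 and statsmodels 0.14.6 were used. In simulated data for 17687 genes, 99.5% of 200 genes changed by 4-fold were recovered. The noise was set and not estimated from replicates, and 4-fold lies well past the 2-fold threshold. This recovery checks the calculation only and says nothing about smaller differences or false calls.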

Additional observations from a re-analysis of the deposited data

How the results depend on the processing

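The 33 named genes, members and pathway genes, were recomputed with median centring, quantile normalization, a lowess trend removed (span 0.3), 32 added on the linear scale, and genes under the 25th percentile of mean level left out, which gave 157 values. Of these, 152 kept their side of the 2-fold threshold, 5 fell under it and none changed direction past it. The 5 were MMP10, ADAM19, ADAMTS9, TSPAN15 and PAPPA with 32 added, at -0.79, -0.88, 0.51, -0.90 and 0.78. The other named genes past 2-fold, MMP1, PLAU, SERPINE2, SPOCK1 and TSPAN14, stayed past it with 32 added. Leaving out dim genes cannot alter the difference of a gene that is kept, so those values could not move. The 152 also include genes that were under 2-fold as deposited, so this count overstates how stable the calls were. With 32 added, 0 members were higher and 1 was lower, beside 1.41% and 2.83% of all genes. Without the dimmest genes 29 members were left, of which 0 were higher and 3 lower, beside 2.96% and 5.33% of the genes left. The median of these members was -0.16 instead of 0.02. At 1.5-fold 5 members were higher and 7 lower, beside 10.6% and 11.8% of all genes. At 3-fold 1 was higher and 1 lower, beside 0.486% and 1.49%. The median of all genes moved by at most 0.06 under any of these settings. No paired analysis was possible because each condition has 1 array. The weak signal of 31 members on both arrays limits what can be seen in them, and without replicate arrays no difference can be set against the spread between cultures.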
